A study of Mus musculus with 6 samples.

Results

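The 10 genes described here encode receptors that T cells and natural killer (NK) cells carry on their surface to adhere to, and to be activated by, other cells: Thy1, Cd2, Cd5, Ncr1, Cd7, Cd27, Cd96, Cd226, Crtam and Cd160. They were chosen by symbol from the receptor family, with earlier results of these data known. A row was found for 9 of the 10 among the 23930 genes of the table, and Cd27 was not analysed here. Of these 9 genes, 7 passed the filter on low values (at least 5 RPM in at least 3 libraries), and Cd5 and Cd160 did not. RPM scales the reads of a gene to the total reads of its library, so that libraries of unequal depth can be compared.

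Transcripts were measured in cells positive for CD31, the adhesion molecule encoded by Pecam1, sorted from tumours 2 weeks after LLC cells (Lewis lung carcinoma, an established line of mouse origin) were injected under the skin of C57/Bl6 mice. The labels give 3 libraries of tumours from LLC cells with BMP9 overexpression (replicates 4, 5 and 6) and 3 libraries of tumours from Control LLC cells (replicates 1, 2 and 3). BMP9, a ligand of the bone morphogenetic protein family, was overexpressed by the injected tumour cells, and the hosts of both groups were of the same strain, with no engineered allele named. The labels give no age, sex or vector, and they do not say whether the libraries come from separate animals or whether tumours were pooled, so p-values reflect only how these samples vary, possibly for technical reasons.

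T cells recognise peptides through the T cell receptor, but how long they hold on to a target and how strongly they respond also depends on accessory receptors. CD2 binds CD48 in mice and brings the membranes together. CD226 and CD96 compete for ligands of the nectin family, CRTAM binds the nectin-like molecule CADM1, and NKp46, the product of Ncr1, lets NK cells kill targets through immune tyrosine adaptors. In tumours such receptors are known for their part in the killing of tumour cells by cytotoxic lymphocytes.

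Depth ranged from 1321762 to 28380957 reads per library, and BMP9 overexpression replicate 6 was the deepest. The gene of the overexpressed ligand, Gdf2, had 0.506, 0.227 and 0.176 RPM in BMP9 overexpression libraries, from 1, 1 and 5 reads, and 0 RPM in the 3 Control libraries. These are levels in the sorted cells and not in the injected tumour cells. CD31 is also carried by many leukocytes, and Pecam1 itself averaged 303 ± 53.5 RPM in BMP9 overexpression and 448 ± 84.3 RPM in Control libraries (SD, n = 3 each). Pecam1 did not pass the test (log2 difference -0.56, limma adjusted p = 0.118), and its value was -0.30 with TMM factors. Of 10 other pan-endothelial markers, 8 were below the filter, and the sum of the 10 was 17.2 to 21.3 RPM in BMP9 overexpression libraries and 19.6 to 55.2 RPM in Control libraries. The 2 that passed the filter were Kdr, which was called lower (log2 difference -1.32, adjusted p = 0.025), and Cdh5, which did not pass the test (-0.56, adjusted p = 0.343). The Kdr call was lost with TMM factors (adjusted p = 0.0646), with no filter (adjusted p = 0.215), within the earlier run time stamp (adjusted p = 0.0904), and without Control replicate 2 (-0.89, adjusted p = 0.115) or BMP9 overexpression replicate 6 (adjusted p = 0.0922). In bulk libraries, fewer cells of a type and less RNA of a gene per cell cannot be told apart.

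Every receptor gene that could be tested was lower in CD31-positive cells when the tumours overexpressed BMP9. The test was limma-trend on log2(RPM + 1) across 9460 genes, with Benjamini-Hochberg adjustment over all of them, and every adjusted p below is from it unless another tool is named. All 7 tested receptor genes passed an adjusted p of 0.05 in the lower direction, and 22.5% of all tested genes did. None passed in the higher direction, where 12.7% of genes did, and at an unadjusted p of 0.05 the number higher was 0 as well. The share of all genes at an unadjusted p of 0.05 was not computed. Their log2 fold changes, BMP9 overexpression minus Control, ran from -3.47 for Cd96 to -1.46 for Cd2, with a median of -2.37, where the median of all tested genes was -0.24. With trimmed-mean (TMM) scaling, under which the median of all genes was 0.00, the 7 values ran from -3.22 to -1.204, and all 7 stayed called. The groups did not overlap for any of the 7 genes, and 31.2% of all tested genes were separated in that direction. Each of the 7 was above 5 RPM in all 6 libraries, so none passed the filter only through its Control values. edgeR and DESeq2 on recovered reads also called all 7 lower, where they called 15.0% and 16.3% of genes lower, and called 0 higher, where they called 17.9% and 18.7%. Groups without overlap in the higher direction made up 16.8% of genes and 0 of these 7.

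**Figure D1:**
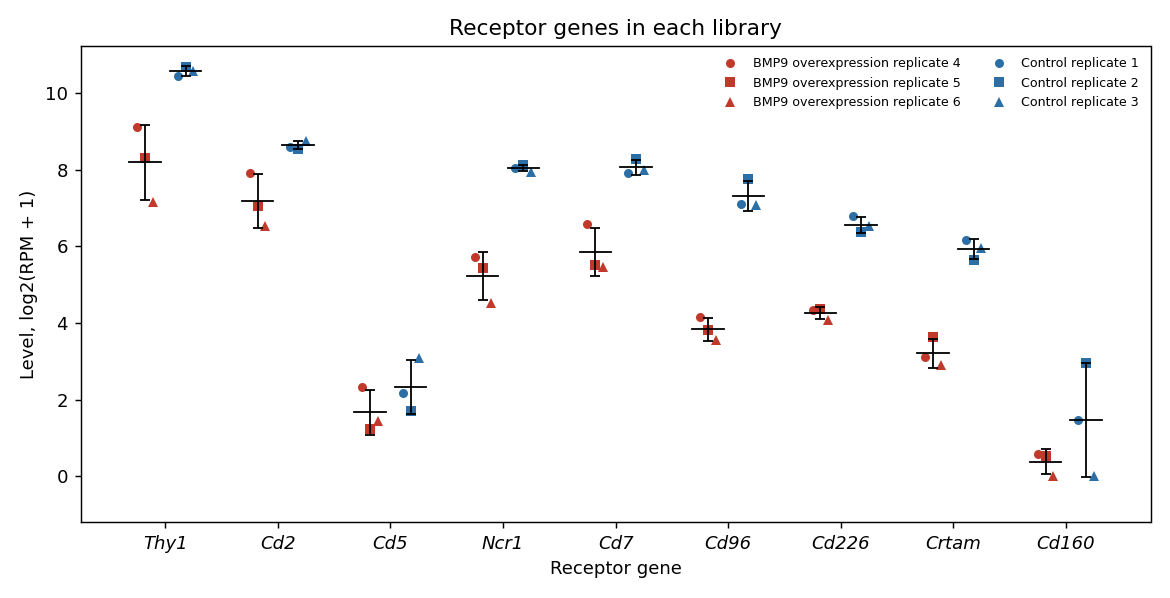
Level of the 9 measured receptor genes in each library, as log2(RPM + 1), with BMP9 overexpression libraries in red at the left of each gene and Control libraries in blue at the right; horizontal lines are group means and bars 1 SD over 3 libraries. The groups do not overlap for 7 genes and overlap for Cd5 and Cd160, which lie near the bottom of the scale.

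Ncr1 encodes NKp46, an activating receptor that in mice marks NK cells and some innate lymphoid cells (chromosome 7, 4337724 to 4345164, plus strand, mm10, the whole gene in GENCODE M21, as for each gene here). Its level was 51.7, 42.0 and 21.8 RPM in BMP9 overexpression replicates 4, 5 and 6, against 264, 278 and 246 RPM in Control replicates 1, 2 and 3. The Control libraries lay close together, with a coefficient of variation of 6.14%, and every one was at least 4.75 times the highest BMP9 overexpression library. On the log2 scale the fold change was -2.82 (SE 0.31, adjusted p = 1.56e-05). Ncr1 signals through adaptor chains encoded by Cd247 and Fcer1g, whose values are given with the partners below.

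Cd96 encodes an immunoglobulin-family receptor of T and NK cells that binds the poliovirus receptor, CD155, and in mice also nectin-1 (chromosome 16, 46035657 to 46120251, minus strand). It had 16.7, 13.2 and 10.7 RPM in BMP9 overexpression replicates 4, 5 and 6, against 135, 216 and 134 RPM in Control replicates 1, 2 and 3. The lowest Control library was 7.99 times the highest BMP9 overexpression library, the widest gap among the 7 genes. The log2 fold change of -3.47 (SE 0.31, adjusted p = 3.6e-06) was the largest of the 7, with a 95% interval of -4.12 to -2.82.

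The sequence around the annotated starts of Ncr1 and Cd96 is shown because, of the tested receptor genes, these are the ones with a matched promoter window. RefSeq promoter windows (GRCm38.p6, the mm10 build), from 250 bases before to 50 bases after the start, were matched for 5 of the 10 genes: Cd5, Cd27, Cd96, Cd160 and Ncr1. Both sequences are written 5′ to 3′ on the strand of the gene, and capitals mark TGTGGT, a motif of RUNX factors, or its reverse complement ACCACA. The Ncr1 window is chr7:4337474-4337773, plus strand, and the Cd96 window is chr16:46120199-46120498, minus strand.
Ncr1: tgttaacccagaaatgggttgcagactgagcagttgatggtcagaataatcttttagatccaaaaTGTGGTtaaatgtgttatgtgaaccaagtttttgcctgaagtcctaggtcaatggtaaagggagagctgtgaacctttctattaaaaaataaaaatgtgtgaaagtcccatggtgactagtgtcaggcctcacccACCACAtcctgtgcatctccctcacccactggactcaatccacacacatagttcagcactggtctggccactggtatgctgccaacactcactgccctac
Cd96: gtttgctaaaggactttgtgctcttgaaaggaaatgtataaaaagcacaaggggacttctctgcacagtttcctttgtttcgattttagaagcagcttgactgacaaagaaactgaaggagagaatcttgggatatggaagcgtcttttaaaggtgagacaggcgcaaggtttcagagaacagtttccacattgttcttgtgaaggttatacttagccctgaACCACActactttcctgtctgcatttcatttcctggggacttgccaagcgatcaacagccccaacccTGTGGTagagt
Each window holds 2 matches, and 16.8% of 32851 promoter windows hold at least 1. The T-box motif TCACAC or its reverse complement was found 1 time in the Ncr1 window and 0 times in that of Cd96, and 14.5% of all windows hold it. The ETS motif AGGAAG, on either strand, was found in neither, and 35.4% of all windows hold it. Ncr1 has 2 annotated starts, with the same counts in each window; the one shown is that of the GENCODE gene. Of the other matched windows, the 2 of Cd160 each had 1 RUNX and 1 T-box match, with 2 and 1 ETS matches. The Cd5 window had 0 RUNX, 0 T-box and 2 ETS matches, and the Cd27 window had 0 of each. The RUNX and T-box matches do not overlap in the Ncr1 window. A match describes letters only and does not show binding.

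Crtam encodes a receptor that appears on activated CD8 T cells and NK cells and binds CADM1 on other cells (chromosome 9, 40969691 to 41004628, minus strand). Its level was 7.60, 11.3 and 6.45 RPM in BMP9 overexpression replicates 4, 5 and 6, against 70.5, 49.2 and 61.0 RPM in Control replicates 1, 2 and 3. The values of the BMP9 overexpression libraries rest on 15, 50 and 183 reads, so counting error alone is sizeable in replicate 4. All 3 were nonetheless below every Control library. The log2 fold change was -2.71 (SE 0.33, adjusted p = 2.6e-05), and it was -2.28 with a pseudocount of 5, which shrinks low genes.

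Cd226 encodes DNAM-1, the activating receptor for CD155 and nectin-2 (chromosome 18, 89176967 to 89272229, plus strand). It was at 19.2, 19.5 and 15.96 RPM in BMP9 overexpression replicates 4, 5 and 6, against 110, 81.7 and 90.5 RPM in Control replicates 1, 2 and 3. This was the steadiest of the 7 genes in BMP9 overexpression libraries, with a coefficient of variation of 10.8%. The log2 fold change was -2.30 (SE 0.28, adjusted p = 3.18e-05), and it was nearly the same, -2.22, within the earlier run time stamp. Platelets carry Cd226 as well. In the same BMP9 overexpression libraries 3 of 5 platelet markers were called higher, where 12.7% of all tested genes were. The log2 fold changes of the 3 were 3.68 for Pf4, 3.90 for Ppbp and 2.01 for Itga2b. Ppbp rested on 4, 3 and 4 reads in Control replicates 1, 2 and 3. Its value was 2.70 with a pseudocount of 5 and 4.95 with edgeR. With no filter the Itga2b call was lost (adjusted p = 0.066). The other 2, Gp9 and Gp1ba, were below the filter. They averaged 0 and 1.30 RPM in BMP9 overexpression libraries and 0.0727 and 0.564 RPM in Control libraries. The part of these markers in the Cd226 result was not tested.

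Thy1 encodes a small glycoprotein anchored in the outer membrane leaflet by lipid, which in mice is carried by T cells and also by some NK and innate lymphoid cells, neurons and fibroblasts (chromosome 9, 44043384 to 44048579, plus strand). It had 548, 316 and 142 RPM in BMP9 overexpression replicates 4, 5 and 6, against 1377, 1639 and 1532 RPM in Control replicates 1, 2 and 3. The BMP9 overexpression libraries differed by up to 3.87 times among themselves, the widest spread of the 7 genes, while the Control libraries differed by 1.19 times. Even so the lowest Control library was 2.51 times the highest BMP9 overexpression library. Thy1 fell by 2.37 on the log2 scale (SE 0.38, adjusted p = 0.000275), and within the earlier run time stamp, described below, it was -1.46 (adjusted p = 0.00878). With no filter on low values the adjusted p was 0.0837. Fibroblast and pericyte markers, which could come with Thy1, summed to 32.1 to 50.1 RPM in BMP9 overexpression libraries and 10.6 to 48.5 RPM in Control libraries over 8 genes. Of the 3 that passed the filter, Dcn was called higher (2.42 on the log2 scale, adjusted p = 0.000712), a call lost with no filter (adjusted p = 0.064). Dcn rested on 2, 1 and 5 reads in Control replicates 1, 2 and 3. Its value was 1.29 with a pseudocount of 5 and 3.53 with edgeR. Col1a1 overlapped between groups and was called higher (1.36, adjusted p = 0.0414). Its call was lost without Control replicate 2 (0.88, adjusted p = 0.178) or 3 (adjusted p = 0.0751), without BMP9 overexpression replicate 4 (adjusted p = 0.0914) or 5 (adjusted p = 0.125), within the earlier stamp (adjusted p = 0.0799) and with no filter (adjusted p = 0.37). The other tested marker, Col3a1, overlapped between groups and did not pass (-0.84, adjusted p = 0.299). It was called lower without Control replicate 2 (-1.77, adjusted p = 0.00674). Pdgfra and Pdgfrb, below the filter, averaged 1.06 and 1.68 RPM in BMP9 overexpression and 0.915 and 3.06 RPM in Control libraries.

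Cd7 encodes an immunoglobulin-family costimulatory receptor, known best from human T and NK cells (chromosome 11, 121036747 to 121039418, minus strand). Its values were 94.2, 44.2 and 43.0 RPM in BMP9 overexpression replicates 4, 5 and 6, against 239, 311 and 251 RPM in Control replicates 1, 2 and 3. Replicate 4 was the highest BMP9 overexpression library and still below every Control library. Its fitted log2 fold change was -2.21 (SE 0.32, adjusted p = 9.92e-05), and -1.48 within the earlier stamp (adjusted p = 0.00687). An antisense gene, Gm11775, overlaps Cd7 in GENCODE M21, and whether the counting used strand is not given in the sources used here, so reads of the 2 genes may not be separable.

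Cd2 encodes the adhesion receptor for CD48 and changed least (chromosome 3, 101275899 to 101287939, minus strand). It was at 242, 132 and 91.4 RPM in BMP9 overexpression replicates 4, 5 and 6, against 387, 371 and 428 RPM in Control replicates 1, 2 and 3. The groups did not overlap, but the highest BMP9 overexpression library and the lowest Control library differed by only 1.54 times. Cd2 fell by 1.46 on the log2 scale (SE 0.32, 95% interval -2.14 to -0.78, adjusted p = 0.0027). The call was lost within the earlier stamp (-0.71, adjusted p = 0.115), where only replicate 4 stands for BMP9 overexpression, with the time stamp as a covariate (adjusted p = 0.12), and with no filter on low values (adjusted p = 0.117).

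Cd5 and Cd160 were low in both groups. Cd5, a scavenger-type receptor that dampens T cell receptor signals and is also found on some B cells (chromosome 19, 10717116 to 10739002, minus strand), had 4.05, 1.36 and 1.69 RPM in BMP9 overexpression replicates 4, 5 and 6, against 3.49, 2.27 and 7.50 RPM in Control replicates 1, 2 and 3. The groups overlapped, with 62 reads in the BMP9 overexpression libraries and 34 in the Control libraries in all. Cd160, a lipid-anchored receptor for HVEM (chromosome 3, 96798763 to 96829351, minus strand, overlapped by Pdzk1), had 0.506, 0.454 and 0 RPM in BMP9 overexpression replicates 4, 5 and 6, against 1.75, 6.81 and 0 RPM in Control replicates 1, 2 and 3. These were 3 reads of 34765122 in the BMP9 overexpression libraries and 17 of 7904976 in the Control libraries, of which 9 came from replicate 2 and none from replicate 3. Without the filter on low values neither passed the test, with log2 fold changes of -0.65 for Cd5 and -1.10 for Cd160 (limma adjusted p = 0.613 for each). For Cd5 the Control libraries alone spanned 2.27 to 7.50 RPM. The panel reads 1 short segment per gene, so a low value need not mean that a transcript was scarce.

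The BMP9 overexpression libraries were not alike. Replicate 6, the deepest, had the lowest level of all 7 tested genes, and replicate 4 had the highest level of 5 of them and replicate 5 of the other 2, Cd226 and Crtam. Among Control libraries each replicate was highest for some genes and lowest for others. The sum of the 9 measured genes was 984, 580 and 333 RPM in BMP9 overexpression replicates 4, 5 and 6, against 2588, 2954 and 2749 RPM in Control replicates 1, 2 and 3, and Thy1 gave more than any other gene to it. The descriptions carry 2 run time stamps. BMP9 overexpression replicate 4 shares the earlier with all 3 Control libraries, whereas BMP9 overexpression replicates 5 and 6 have the later, which no Control library has. Within the earlier stamp 6 of the 7 genes were called lower, where 17.6% of all genes were, and 0 higher, where 10.3% were, and their log2 fold changes ran from -3.16 for Cd96 to -1.46 for Thy1. That comparison sets replicate 4 alone against the Control libraries and assumes that it varies as they do.

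**Figure D2:**
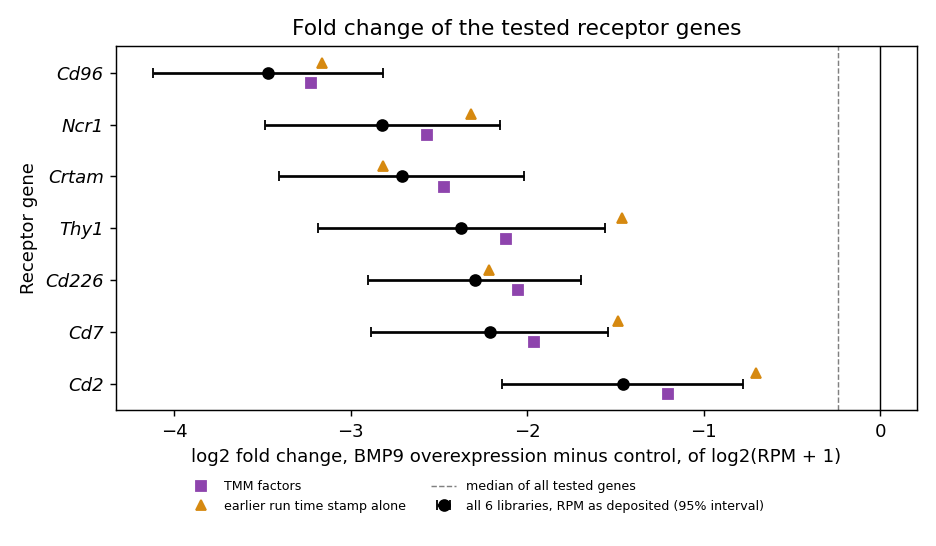
Log2 fold change of the 7 tested receptor genes, BMP9 overexpression minus Control on the log2(RPM + 1) scale, in black with the 95% limma interval; squares are values with TMM factors, triangles values within the earlier run time stamp, and the dashed line is the median of all tested genes. Cd96 lies furthest from 0 at -3.47 and Cd2 nearest at -1.46, and within the earlier stamp Thy1, Cd7 and Cd2 lie nearer to 0 than Crtam and Cd226.

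The receptor genes were next set against other transcripts of the same library, as differences of log2(RPM + 1), which depend on the scaling of libraries only through the pseudocount. With a pseudocount of 5 the median relative to Ptprc was -1.99, against -2.08 as given below. Ptprc encodes CD45, which nearly all leukocytes carry. It had 781, 372 and 293 RPM in BMP9 overexpression replicates 4, 5 and 6, against 451, 879 and 394 RPM in Control replicates 1, 2 and 3, and did not pass the test (log2 fold change -0.29, SE 0.38, adjusted p = 0.576). Relative to Ptprc, all 7 receptor genes were lower in BMP9 overexpression libraries without overlap. The share of all tested genes separated relative to Ptprc was not computed. On RPM 31.2% were lower without overlap. The differences in mean log2 ratio ran from -3.18 for Cd96 to -1.17 for Cd2, with a median of -2.08. The two-sided exact permutation p was 0.1 for each, which is the lower limit for 3 against 3, and 0.156 after adjustment over all 14 ratios computed.

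Cd3e, which encodes a CD3 chain that signals for the T cell receptor, itself fell (log2 fold change -2.41, SE 0.26, adjusted p = 1.38e-05). Relative to Cd3e, 5 of the 7 receptor genes overlapped between groups. Thy1 had a mean log2 ratio to Cd3e of 1.48 ± 0.997 in BMP9 overexpression and 1.44 ± 0.19 in Control libraries (SD, n = 3 each, exact permutation p = 1). The mean ratio of Cd226 was -2.45 ± 0.35 in BMP9 overexpression and -2.56 ± 0.40 in Control libraries (SD, n = 3 each, exact permutation p = 0.5). Those of Ncr1, Cd7 and Crtam differed by -0.41, 0.19 and -0.31, each less than the pooled SD between libraries. These overlaps do not show that the genes kept pace with Cd3e, since the spread between libraries was up to 0.997 on the log2 scale.

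The exceptions were Cd2 and Cd96, which moved to opposite sides of Cd3e. The log2 ratio of Cd2 to Cd3e was 1.02, 0.65 and -0.29 in BMP9 overexpression replicates 4, 5 and 6, against -0.30, -0.57 and -0.61 in Control replicates 1, 2 and 3. The lowest BMP9 overexpression value and the highest Control value nearly touched. That of Cd96 was -2.76, -2.59 and -3.27 in BMP9 overexpression replicates 4, 5 and 6, against -1.80, -1.35 and -2.28 in Control replicates 1, 2 and 3, with no overlap. Neither difference, 0.95 for Cd2 and -1.06 for Cd96, went below the exact permutation p of 0.1 that the design allows. Set against the other 6 tested receptor genes one by one, a comparison chosen after the values were seen, Cd2 had a higher log2 ratio in every BMP9 overexpression library than in any Control library. The differences ran from 0.76 against Cd7 to 2.01 against Cd96. Since Cd2 had the smallest fold change of the 7, this restates their order and is given with no test.

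**Figure D3:**
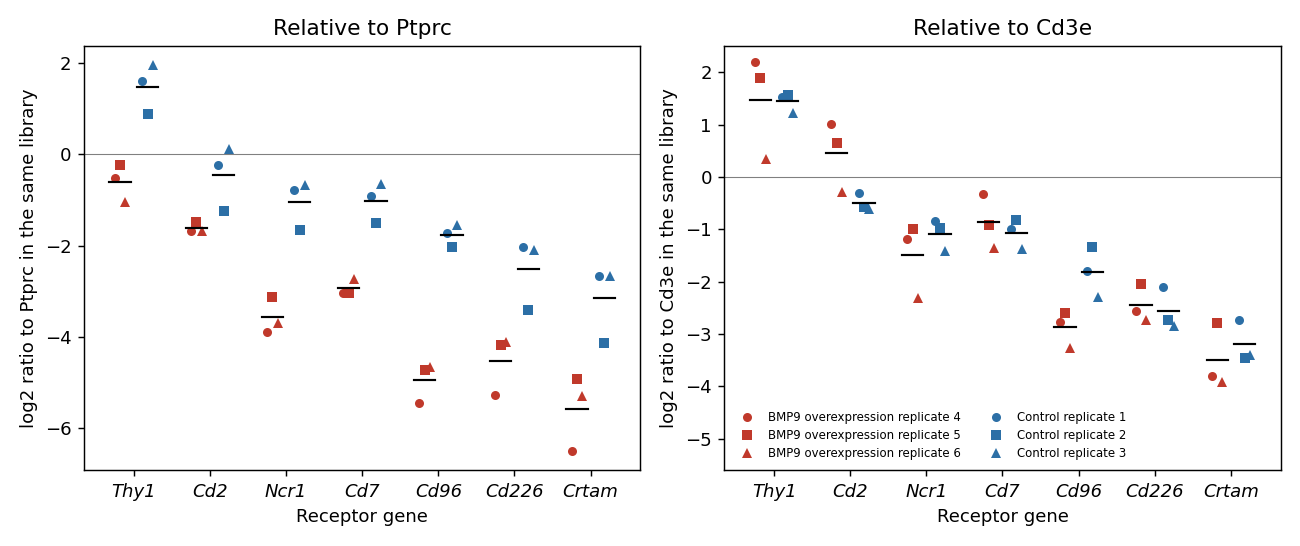
Log2 ratio of each tested receptor gene to Ptprc (left panel) and to Cd3e (right panel) in the same library, with BMP9 overexpression in red at the left and Control in blue at the right of each gene; lines are means of 3 libraries. All 7 genes are separated relative to Ptprc, and relative to Cd3e Cd2 is higher and Cd96 lower in BMP9 overexpression libraries while the other 5 overlap.

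No ligand of the receptors was called lower, and some were called higher. Of 16 listed ligands and counter-receptors, 11 were tested, of which 4 rose and 0 fell (limma), with a median log2 fold change of 0.69. The background was 12.7% of all genes called higher and 22.5% called lower. At an unadjusted p of 0.05 the counts were 6 higher and 3 lower. The share of all genes at that unadjusted threshold was not computed. edgeR and DESeq2 each called 5 higher and 0 lower. Of all genes they called 17.9% and 18.7% higher and 15.0% and 16.3% lower. With no filter on low values Itgam alone of the 4 stayed called. Macrophage and monocyte markers, which were higher in the same libraries (7 of 7 tested, with sums of 16290 to 22272 RPM in BMP9 overexpression and 4088 to 6611 RPM in Control libraries over 8 genes), include Itgam. Within the earlier stamp the tested markers ran from 1.02 for Lyz2 to 3.70 for Cd14. With no filter 4 of these markers stayed called, where 1440 of 23930 genes were called in either direction. The part of such cells in these results was not tested.

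Pvr encodes CD155, the ligand that CD226 and CD96 share. It had 101, 64.9 and 83.0 RPM in BMP9 overexpression replicates 4, 5 and 6, against 45.6, 29.5 and 47.5 RPM in Control replicates 1, 2 and 3, so that every BMP9 overexpression library was above every Control library. The log2 fold change was 1.01 (SE 0.30, adjusted p = 0.0169), and the call was lost without Control replicate 2 (adjusted p = 0.069) or BMP9 overexpression replicate 6 (adjusted p = 0.056). Nectin1, bound by mouse CD96, rose by 1.08 (SE 0.36, adjusted p = 0.0299), with 26.8, 14.3 and 18.5 RPM in BMP9 overexpression libraries against 8.51, 11.3 and 6.501 RPM in Control libraries. Its call was lost without Control replicate 1 (adjusted p = 0.085) or 3 (adjusted p = 0.116), or BMP9 overexpression replicate 4 (adjusted p = 0.079) or 6 (adjusted p = 0.081). Nectin2 and Nectin3 were below the filter, at 2.96 and 0.917 RPM in BMP9 overexpression and 1.54 and 1.19 RPM in Control libraries on average.

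The other ligands that rose were integrin chains. Itgam and Itgb2 together form Mac-1, a reported counter-receptor of Thy1 on myeloid cells. Itgam had 3709, 4301 and 4021 RPM in BMP9 overexpression replicates 4, 5 and 6, against 420, 299 and 634 RPM in Control replicates 1, 2 and 3. Its log2 fold change was 3.21 (SE 0.31, adjusted p = 5.58e-06), and that of Itgb2, the beta chain shared with other leukocyte integrins, was 1.30 (SE 0.28, adjusted p = 0.00266). Itgax and Itgav had values of 0.03 and 0.05 and did not pass.

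Cd48, the ligand of CD2, had 117, 42.6 and 71.4 RPM in BMP9 overexpression replicates 4, 5 and 6, against 108, 142 and 126 RPM in Control replicates 1, 2 and 3. Replicate 4 lay within the Control range, and the log2 fold change of -0.80 did not pass (adjusted p = 0.0741), though it passed without that library (-1.16, adjusted p = 0.006). Within the earlier stamp it was -0.09 (adjusted p = 0.871). Itgb3, the beta chain of the vitronectin receptor, was also called lower only when replicate 4 was left out (-1.53, adjusted p = 0.008; -1.08 and adjusted p = 0.0743 with all libraries). Tnfrsf14, which encodes HVEM, the ligand of CD160, had a log2 difference of -0.64 (adjusted p = 0.107). Cadm1, the ligand of CRTAM, stood at 1.31 (SE 0.60, adjusted p = 0.102), and Cd72, reported as a ligand of CD5, at 0.69 (adjusted p = 0.0733). Cadm1 was at 0.757 RPM in Control replicate 2 and at 13.7 and 9.50 RPM in the other Control libraries, so its value moved with the library left out, to 0.37 without Control replicate 2 (adjusted p = 0.48) and to 1.90 without Control replicate 1 (adjusted p = 0.032, called higher). Cd72 was called higher with TMM scaling (0.94, adjusted p = 0.017). Cd70, Sectm1a and Sectm1b were below the filter, and Sectm1b was listed at 0 in every library.

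Many of the listed signalling partners and competing receptors were lower. Of 21 listed partners and competing receptors 19 had a row and were tested, of which 10 fell and 1 rose, with a median log2 fold change of -0.73, where 22.5% and 12.7% of all genes fell and rose. With no filter 5 stayed called lower, which were Lck, Zap70, Cd247, Traf2 and Fyn. Lck, the kinase that phosphorylates the T cell receptor chains, had 155, 104 and 51.8 RPM in BMP9 overexpression replicates 4, 5 and 6, against 834, 657 and 695 RPM in Control replicates 1, 2 and 3. It was separated by a wide margin and fell by 2.93 on the log2 scale (SE 0.34, adjusted p = 2.12e-05). Zap70, the kinase recruited to phosphorylated receptor chains, fell by 2.86 (SE 0.37, adjusted p = 3.99e-05). Itgal, the alpha chain of LFA-1, which associates with CD226, fell by 1.55 (SE 0.29). Fyn, a kinase related to Lck, fell by 1.37 (SE 0.27), and Traf2, an adaptor of TNF receptors such as CD27, fell by 1.77 (SE 0.28).

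NKp46 can pair with chains of CD247 or of Fcer1g, and these 2 genes moved apart. Cd247 had 77.5, 37.4 and 37.8 RPM in BMP9 overexpression replicates 4, 5 and 6, against 204, 212 and 160 RPM in Control replicates 1, 2 and 3, and fell by 1.97 on the log2 scale (SE 0.31, adjusted p = 0.000243). Fcer1g, which macrophages and other myeloid cells also use for their Fc receptors, had 2384, 2964 and 2773 RPM in BMP9 overexpression replicates 4, 5 and 6, against 847, 2188 and 1259 RPM in Control replicates 1, 2 and 3. It rose by 1.02 (SE 0.34, adjusted p = 0.0289). The call was lost with no filter (adjusted p = 0.358), with the time stamp as a covariate (0.85, adjusted p = 0.16) or within the earlier stamp (adjusted p = 0.202), without Control replicate 1 (0.70, adjusted p = 0.181) or 3 (0.98, adjusted p = 0.081), and without BMP9 overexpression replicate 5 (0.95, adjusted p = 0.077) or 6 (1.002, adjusted p = 0.075).

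Receptors that share a ligand with these genes did not all follow. Tigit, the inhibitory receptor for CD155, had 9.12, 12.7 and 5.003 RPM in BMP9 overexpression replicates 4, 5 and 6, against 32.7, 29.5 and 43.0 RPM in Control replicates 1, 2 and 3, and fell by 1.92 on the log2 scale (SE 0.36, adjusted p = 0.000957). Btla, which binds HVEM as CD160 does and is also carried by B cells, fell by 0.89 (adjusted p = 0.0437). The call was lost with TMM scaling (-0.64, adjusted p = 0.135), edgeR (adjusted p = 0.113) and DESeq2 (adjusted p = 0.102). It was also lost without any 1 library other than Control replicate 2. Within the earlier stamp Btla stood at -1.19. Cd244, which binds CD48 as CD2 does and is also found on myeloid cells, stood at 0.36 on the log2 scale (SE 0.27, adjusted p = 0.311). The calls of Vav1, a guanine nucleotide exchange factor (-0.73, adjusted p = 0.0384), and Cd2bp2, which binds the CD2 tail (-1.08, adjusted p = 0.0165), were also lost with TMM scaling, at -0.47 (adjusted p = 0.175) and -0.83 (adjusted p = 0.057). Vav1 also lost its call with edgeR (adjusted p = 0.208) and DESeq2 (adjusted p = 0.17), and without any 1 library other than BMP9 overexpression replicate 5. Cd2bp2 lost its call with edgeR (adjusted p = 0.0575) and kept it with DESeq2 (adjusted p = 0.0447). It also lost the call without Control replicate 1 or 3 or BMP9 overexpression replicate 6. Within the earlier stamp Cd2bp2 stood at -0.70. The remaining 7 partners did not pass: Csk, Ptpn6 and Traf5, with values of -0.36, -0.31 and -0.39, and Grb2, Cd2ap, Pstpip1 and Scrib, with values of 0.28, 0.30, 0.29 and 0.61. Scrib was called higher with TMM scaling (0.86, adjusted p = 0.028), and Pstpip1 with the time stamp as a covariate (0.91, adjusted p = 0.047).

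**Figure D4:**
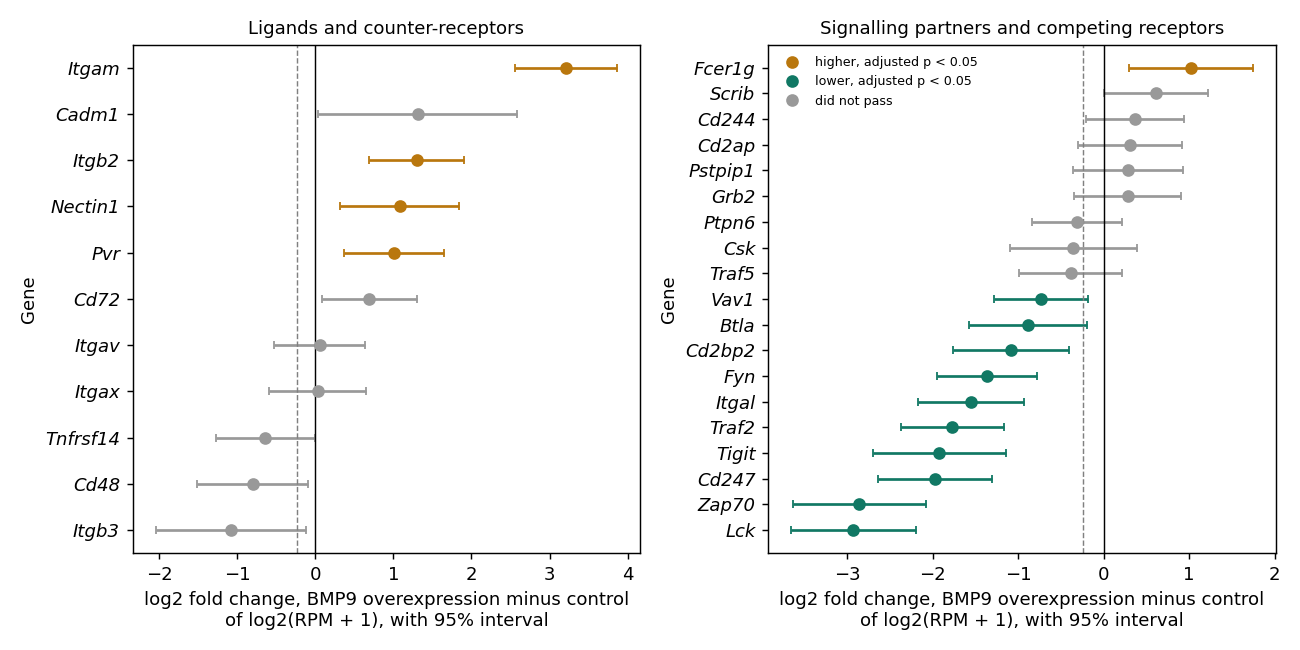
Log2 fold change, BMP9 overexpression minus Control on the log2(RPM + 1) scale, with 95% limma intervals, of 11 tested ligands and counter-receptors (left panel) and 19 tested partners and competing receptors (right panel); the dashed line is the median of all tested genes. The ligands that pass lie to the right of 0, with Itgam furthest at 3.21, and the partners that pass lie to its left except Fcer1g at 1.02.

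Markers that define T and NK cells moved with the receptors. Of 8 T cell markers 7 fell and 1, Skap1, did not pass (-1.09, adjusted p = 0.103), with a median log2 fold change of -1.82, and all 8 NK cell markers fell, with a median of -3.13, where 22.5% of all genes fell. Within the earlier stamp T cell markers ran from -2.57 for Ubash3a to 0.14 for Skap1, with Cd3d at -0.34 and Lat at -0.56. NK cell markers there ran from -3.85 for Klrd1 to -0.95 for Klrb1c. With no filter 2 T cell markers, Cd3e and Cd3g, and 6 NK cell markers stayed called. In that fit 1440 of 23930 genes were called in either direction. Sums of T cell markers were 298 to 396 RPM in BMP9 overexpression and 1190 to 1664 RPM in Control libraries. For NK cell markers they were 241 to 604 RPM in BMP9 overexpression and 3042 to 4514 RPM in Control libraries. Several of these markers are found in activated T cells as well as in NK cells, and no test compared the 2 medians. B cell markers, which could come with Cd5 and Btla, summed to 43.9 to 68.4 RPM in BMP9 overexpression and 42.4 to 65.5 RPM in Control libraries, and none of the 4 tested passed (limma). Ms4a1, at -0.59 with all libraries, was called lower without BMP9 overexpression replicate 4 (-1.08, adjusted p = 0.0381). Of 5 dendritic cell markers 2 fell, Siglech by 1.16 (adjusted p = 0.00769) and Xcr1 by 1.42 (adjusted p = 0.00825). In all, 4 were lower without overlap, where 31.2% of all tested genes were. Bst2 and Zbtb46, among those 4, did not pass (-0.40 and -0.44). Flt3 overlapped and stood at 0.67 (adjusted p = 0.234). It was called higher without BMP9 overexpression replicate 5 (1.21, adjusted p = 0.0231). The dendritic sums were 155 to 206 RPM in BMP9 overexpression and 246 to 269 RPM in Control libraries. The Siglech call was lost within the earlier stamp (-0.99, adjusted p = 0.0735) and without Control replicate 1 (adjusted p = 0.0518), and the Xcr1 call with no filter (adjusted p = 0.0817). How much of the lower receptor levels goes with fewer T and NK cells in the sorted fraction was not tested.

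The genes whose pattern over the 6 libraries was closest to the mean pattern of the 7 tested receptor genes were sought among 8262 genes whose mean reached 10 RPM, by the root mean square difference of mean-centred log2(RPM + 1) values. The 8 closest were Gprin3 (0.12), Rltpr (0.12), Gimap5 (0.13), D630039A03Rik (0.14), Ctsw (0.14), Sh2d3c (0.17), Kif18b (0.17) and Tk1 (0.18). Ctsw encodes cathepsin W, a protease of cytotoxic lymphocytes, and averaged 103 RPM in BMP9 overexpression and 599 RPM in Control libraries. Gimap5 encodes a GTPase of lymphocytes, while Kif18b and Tk1 serve mitosis and thymidine salvage in dividing cells. Among the receptor genes themselves Ncr1 was nearest to their common pattern, at 0.20, and Cd2 and Cd96 were furthest from it, at 0.54 and 0.55. These distances are a description over 6 libraries that share the group difference.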

How the data were processed

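The authors deposited 1 table of RPM per gene for 6 libraries of total RNA, prepared with the Ion AmpliSeq mouse transcriptome panel for Ion Torrent, per the labels' protocols; the submitters' processing notes name mm10, and the counting tool is not given in the sources used here. This panel amplifies a segment of each gene by PCR without molecular identifiers, so RPM is not read as relative abundance between genes. For the same reason counts cover counting error only. Sums and ratios of genes are compared between libraries, and a sum is weighted to the genes with the highest RPM. Of 23930 genes, the 9460 that reached 5 RPM in 3 or more libraries were kept, and log2(RPM + 1) was tested with limma 3.58.1 (trend and Benjamini-Hochberg adjustment, threshold 0.05; R 4.3.3). RPM steps gave whole reads for 100% of values within 0.05 reads, and edgeR 4.0.16 and DESeq2 1.42.0 were run on them. Other alternatives were pseudocounts of 0.5 and 5, no filter, TMM factors, the run time stamp, and leaving out each library. Scripts were checked on simulated data. The rule for named genes took all listed receptors, up to 6 ligands and 6 partners with the smallest p and those of opposite sign, Ptprc, Cd3e and Pecam1, and the 8 genes of closest pattern; other genes of the lists were named after their values were seen. The receptors and lists were chosen with earlier results of these data known. Cd27, Siva1 and Pvrig were not analysed here.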

Additional observations from a re-analysis of the deposited data

How the results depend on the processing

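No paired analysis was possible because the groups share no replicate numbers. The 7 tested receptor genes stayed lower under both pseudocounts, TMM factors, edgeR, DESeq2 and each left-out library, and none was called higher under any alternative; 5 were called with no filter, and 6 with the time stamp as covariate or within the earlier stamp. Of the ligands, 1 was called higher with no filter on low values, against 4 in the analysis as reported, and leaving out 1 library gave 2 to 4 higher and 0 to 2 lower. Of the partners, 5 were called lower with no filter, against 10, and 7 to 9 with 1 library left out. The number of partners called higher, 1 as reported, was 0 with no filter and within the earlier stamp, 2 with TMM factors, edgeR or DESeq2, and 0 to 1 with 1 library left out. The median difference relative to Ptprc, -2.08 as reported, was -2.76 within the earlier stamp and -2.46 to -1.85 with 1 library left out; relative to Cd3e it was -0.18 to 0.25. Over all genes, 3330 were called as reported, 1440 with no filter and 2311 to 3552 with 1 library left out. The cause of these shifts was not tested. Since the later stamp holds no Control library, its effect and that of BMP9 overexpression cannot be told apart in replicates 5 and 6. As a guide to depth for Cd5 and Cd160, 3 reads correspond to 0.106 to 1.52 RPM in BMP9 overexpression and 0.655 to 2.27 RPM in Control libraries.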
